A study of Mus musculus with 6 samples.

Results

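The cytosolic HSP70 and HSP90 chaperone system was followed through 10 genes, chosen by symbol: Hsp90aa1, Hsp90ab1, Stip1, Hspa8, Hspa1a, Hspa1b, Hspa4, Hsph1, Dnaja1 and Dnajb1. All 10 were present among the 19233 genes of the deposited table. RNA had been taken from polysome fractions, which hold mRNAs carrying several ribosomes, of RAW264.7, a mouse macrophage-like tumour line. The 6 libraries were titled M2, the alternatively activated state. Of these, 3 came from cells given 500 nM BMH-21, a small-molecule inhibitor of RNA polymerase I, for 24 h starting 24 h after polarization, and 3 from cells given the solvent DMSO. The protocol text names bone-marrow-derived macrophages and several polarizing agents, so the agent used on the line itself is not settled by the labels, and separate cultures are not stated. P-values therefore measure the spread between these libraries, which may be technical. No unfractionated RNA was used here, so a lower value may mean less mRNA in the cell or less of it on polysomes, and these cannot be told apart. Likewise, in bulk samples fewer cells of a type and less RNA per cell cannot be told apart.

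HSP70 proteins bind exposed hydrophobic stretches of unfolded proteins in cycles driven by ATP. J-domain proteins such as DNAJA1 and DNAJB1 bring clients and trigger ATP hydrolysis, and HSP110 proteins release the ADP so that the client can leave. STIP1, also called HOP, holds HSP70 and HSP90 together through tetratricopeptide repeats, and HSP90 then finishes the maturation of kinases, steroid receptors and many other clients. Hspa8 and Hsp90ab1 are the constitutive genes of their families. Hspa1a, Hspa1b, Hsph1, Dnajb1 and Hsp90aa1 are classical targets of the heat shock factor HSF1, which binds repeated GAA units in their promoters.

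Values were read as FPKM, that is fragments per kilobase of transcript scaled to sequencing depth, and low values implied 18770000 to 24070000 reads per library. Macrophage identity was seen in all libraries, with all 8 macrophage markers detected. The summed level of these markers was 10452 to 10851 FPKM in DMSO and 18049 to 19265 FPKM in BMH-21, mostly lysozyme Lyz2, which took 2.68% to 2.84% of the column totals in DMSO and 4.52% to 4.86% in BMH-21. Of the 8, limma called 4 higher (Lyz2, Cd68, Itgam, Spi1) and 4 lower (Adgre1, Fcgr1, Csf1r, Ptprc), or 4 and 2 with median-ratio scaling. Of all tested genes, 19.9% were called higher and 58.4% lower, or 38.2% and 35.3% with that scaling. Adgre1, which encodes F4/80, went from 40.7 to 22.7 FPKM and the Fc receptor gene Fcgr1 from 36.4 to 17.0 FPKM. Some marker calls rested on the scaling. Csf1r turned sign with median-ratio scaling (log2 fold change 0.10) and was called higher with upper-quartile scaling (0.12). Cd68 lost its call with column totals made equal (0.01) and turned sign with quantile normalization (−0.04). The Ptprc call was lost with median-ratio, upper-quartile and quantile scaling, and the Lyz2 call with quantile normalization. A control library stood apart. The epithelial markers Epcam, Krt8, Krt18 and Krt19 summed to 0 and 0.0880 FPKM in DMSO replicates 1 and 2, to 9.30 FPKM in DMSO replicate 3, and to 13.8, 10.5 and 12.9 FPKM in BMH-21 replicates 1 to 3. The 12 markers of other cell types stayed at 0.0715 to 0.275 FPKM in sum. Among these, the T cell marker Cd3e, the B cell marker Ms4a1, the NK cell marker Ncr1 and the fibroblast collagens Col1a2 and Col3a1 had no row in the table, and those with a row reached 0.137 FPKM at most. The 10 genes were therefore also compared with DMSO replicate 3 left out and with it as the only control, and for the other genes named such a fit is given where it ended a call.

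In the RefSeq promoter table (GRCm38.p6, windows of 300 bases around each start), 7 of the 10 genes were found, with 11 windows in all. The table was searched on both strands for a pair of HSF1-type units, GAANNTTC or TTCNNGAA. Such a pair was held by 4 of the 7 genes, Hspa1a, Hspa1b, Dnaja1 and Hsph1. Counted by window, it was in 5 of their 11 windows and in 15.1% of all 32851 windows. A run of 3 alternating units was held by Hsph1 alone among the 7, in 2 overlapping windows of the 11, and by 0.603% of all windows. No perfect pair was matched in the windows of Dnajb1, Hspa4 and Stip1, which says only that these letters are not there. The matches are shown because the genes that carry them include one called lower (Dnaja1), one called higher (Hspa1b) and one not called (Hsph1). Capitals mark the matched letters, read 5′ to 3′ on the strand of the gene.
Hspa1a, chr17:34972242-34972271, minus strand, 104 bases before the start: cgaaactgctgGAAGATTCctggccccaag
Hspa1b, chr17:34959324-34959353, minus strand, 104 bases before the start: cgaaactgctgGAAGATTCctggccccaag
Dnaja1, chr4:40722333-40722362, plus strand, 124 bases before one RefSeq start, inside the annotated GENCODE gene: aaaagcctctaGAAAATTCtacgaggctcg
Hsph1, chr5:149636351-149636380, minus strand, 33 bases before one annotated start: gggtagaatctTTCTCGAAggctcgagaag
Hsph1, chr5:149636280-149636309, minus strand, 15 bases after another annotated start: tgctgcagaTTCTGGAAAGTTCtcctcagt
The Hspa1a and Hspa1b stretches are the same, and their whole windows were identical at 296 of 300 bases. In both Hsph1 stretches the matched letters lie inside the annotated GENCODE gene (149614287 to 149636376).

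With BMH-21, the constitutive genes Hsp90ab1, Hspa8 and Hspa4 were lower on polysomes. Dnaja1 and the HSP70 to HSP90 adaptor Stip1 were lower too, and Stip1 fell most. The heat-inducible genes had mixed calls: Dnajb1 and Hsp90aa1 were called lower, Hsph1 was not called, and Hspa1b was called higher with groups that overlapped. Of the 10 genes, 9 reached 1 FPKM in at least 3 libraries and were tested. Among these, limma called 7 lower and 1 higher (adjusted p under 0.05), and 1 was not called. Of all 9748 tested genes, 58.4% were called lower and 19.9% higher, so falls are common in these libraries. The median log2 fold change was −0.51 for the 9 genes and −0.23 for all tested genes, on the log2(FPKM + 1) scale. In 7 of the 9 genes every BMH-21 library lay below every DMSO library, a pattern found in 59.5% of all tested genes. None of the 9 had every BMH-21 library above every DMSO library, against 20.3% of all tested genes. Together the 10 genes summed to 483, 511 and 521 FPKM in DMSO and to 306, 299 and 304 FPKM in BMH-21.

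**Figure D1:**
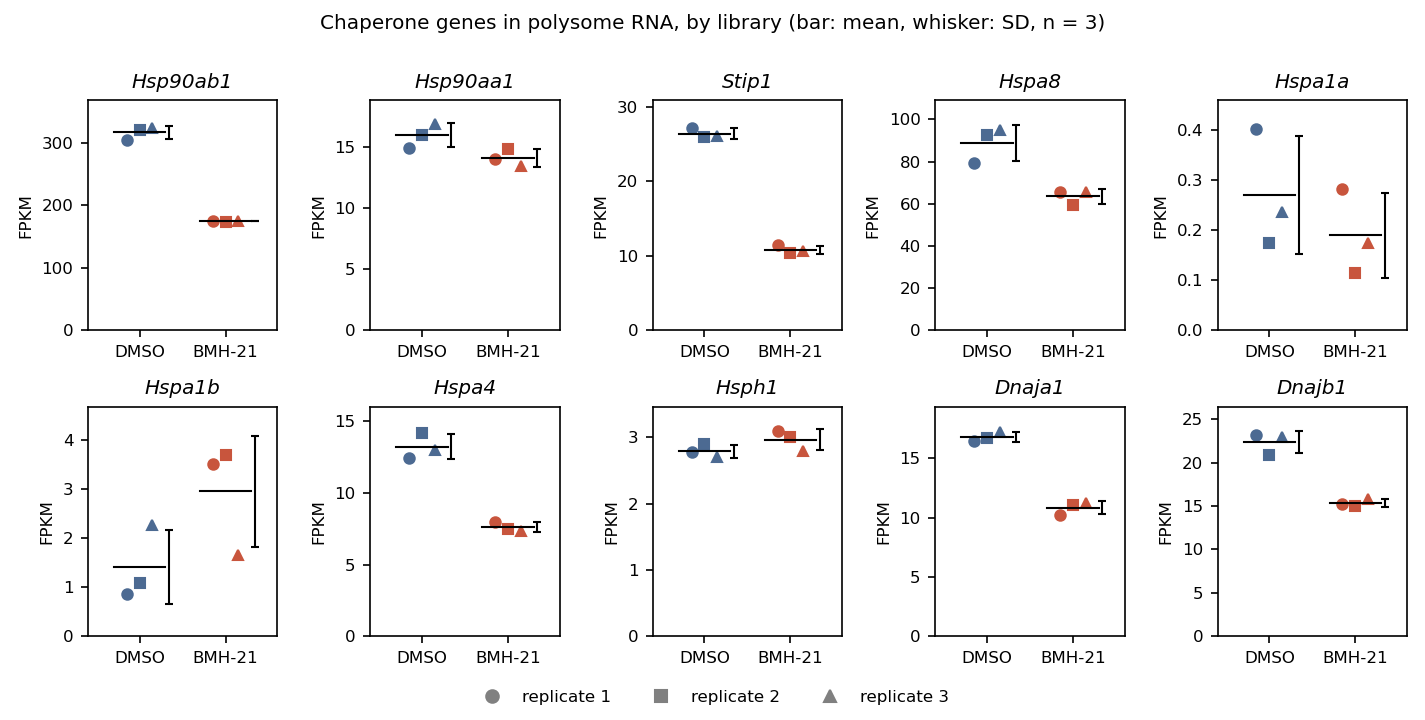
FPKM of each of the 10 genes in each library, with the y axis from 0, replicate numbers as symbols, group means as bars and SD as whiskers (n = 3 per group). The groups are apart in 7 genes, such as Stip1 with 25.9 to 27.2 FPKM in DMSO and 10.4 to 11.4 FPKM in BMH-21, and overlap in Hspa1a, Hspa1b and Hsph1.

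Hsp90ab1 (chromosome 17, 45567775 to 45573271, GRCm38), the constitutive cytosolic HSP90, was the most abundant of the 10. It stood at 306, 321 and 325 FPKM in DMSO replicates 1 to 3 and at 175, 174 and 176 FPKM in BMH-21 replicates 1 to 3. The groups were far apart, and the BMH-21 libraries differed from each other by little. The mean fell from 317 ± 10.3 to 175 ± 0.709 FPKM (SD, n = 3). On the log2 scale the change was −0.85 ± 0.04 (SE; limma, adjusted p = 2.97e-08), or −0.62 relative to the median of all tested genes. Hsp90aa1 (chromosome 12, 110690605 to 110702728), the heat-inducible paralog, was at 15.0, 16.0 and 16.9 FPKM in DMSO and at 14.1, 14.9 and 13.4 FPKM in BMH-21. All BMH-21 values were under the DMSO values, by a margin much smaller than for Hsp90ab1. The log2 fold change was −0.17 ± 0.06 (SE, limma adjusted p = 0.019), which is 0.07 above the all-gene median. This call was lost without DMSO replicate 3 (−0.12, limma adjusted p = 0.082) and held with that library as the only control (−0.25, limma adjusted p = 0.016), and its sign turned with 3 of the 4 other scalings.

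Stip1 (chromosome 19, 7020702 to 7039967) had the largest fall of the tested genes of the group. Its mRNA went from 27.2, 25.9 and 26.1 FPKM in DMSO to 11.4, 10.4 and 10.6 FPKM in BMH-21. No library of either group came near the other group. The mean fell by 59.1%, on the log2 scale by 1.22 ± 0.05 (SE; limma, adjusted p = 1.06e-08), with a 95% interval from −1.32 to −1.11. Only 2.61% of tested genes had a fold change as low or lower. The value was −1.22 without DMSO replicate 3 and −1.20 with that replicate as the only control.

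Hspa8 (chromosome 9, 40800984 to 40810087), the constitutive HSC70 that also uncoats clathrin vesicles, was at 79.2, 92.4 and 94.8 FPKM in DMSO and at 65.5, 59.3 and 65.6 FPKM in BMH-21. The groups did not overlap, and DMSO replicate 1 was the control nearest to the BMH-21 libraries. The log2 fold change was −0.48 ± 0.07 (SE, limma adjusted p = 0.000107), or −0.24 relative to all tested genes. It shrank to −0.18 with median-ratio scaling and −0.16 with upper-quartile scaling, and was still called lower. The Hspa8 level is uncertain for another reason. Of the 50-base windows of its longest coding transcript, 74.8% also occur in transcripts of other annotated genes, 70.0% in the processed pseudogene Gm15459 alone. That pseudogene is listed at almost the same level as Hspa8, 77.9, 87.4 and 89.5 FPKM in DMSO and 66.5, 57.2 and 68.2 FPKM in BMH-21. Hspa8 was 49.0% to 51.4% of the sum of the pair in every library. The sum went from 174 ± 14.6 to 127 ± 9.53 FPKM (SD, n = 3), and Gm15459 itself was called lower (log2 fold change −0.40 ± 0.07 SE, limma adjusted p = 0.000475). How reads were shared between them is not given in the sources used here.

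The stress-inducible HSP70 genes Hspa1a and Hspa1b were the lowest of the 10 in DMSO. Both consist of a single exon, lie close together on chromosome 17 (34969190 to 34972156 and 34956436 to 34959238), and encode nearly the same protein. Hspa1a was at 0.403, 0.175 and 0.236 FPKM in DMSO and at 0.282, 0.114 and 0.175 FPKM in BMH-21, about 8 to 29 reads at the implied depth, and was too low to be tested. Hspa1b was at 0.862, 1.09 and 2.27 FPKM in DMSO and at 3.50, 3.69 and 1.65 FPKM in BMH-21, about 58 to 233 reads. The groups overlapped, since DMSO replicate 3 was above BMH-21 replicate 3. The mean went from 1.40 ± 0.755 to 2.95 ± 1.13 FPKM (SD, n = 3). Hspa1b was called higher, by 0.71 ± 0.24 on the log2 scale (SE; limma, adjusted p = 0.019), the widest error among the tested members. The sign never turned, but the call depended on the libraries and the filter. That call held in 9 of 15 alternatives, every other scaling among them, and was lost in 6. It was lost when a single control was left out, DMSO replicate 1 (0.55) or DMSO replicate 2 (0.63). The same held for leaving out BMH-21 replicate 1 (0.60) or its replicate 2 (0.57), and with DMSO replicate 3 as the only control (0.23, limma adjusted p = 0.45). Without DMSO replicate 3 it was 0.96 (limma adjusted p = 0.0014). The control library with epithelial transcripts had an Hspa1b level 133% above the mean of the other controls, while its differences from that mean in the other 9 genes ran from −18.5% (Hspa1a) to 10.5% (Hspa8). The part of the epithelial transcripts in the Hspa1b values was not tested. Of the 50-base windows of Hspa1b, 62.3% occur also in Hspa1a, so the division between these genes is uncertain too.

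The HSP110 genes, whose products act as nucleotide exchange factors for HSP70, had different calls. Hspa4 (chromosome 11, 53259814 to 53300457), the constitutive member, was at 12.5, 14.2 and 13.0 FPKM in DMSO and at 8.01, 7.47 and 7.37 FPKM in BMH-21. Each BMH-21 library was well below each control. The log2 fold change was −0.72 ± 0.06 (SE, limma adjusted p = 1.18e-06), or −0.49 relative to all tested genes. Hsph1 (chromosome 5, 149614287 to 149636376), the heat-inducible HSP105, was at 2.78, 2.90 and 2.70 FPKM in DMSO and at 3.10, 3.01 and 2.79 FPKM in BMH-21. The groups overlapped, with BMH-21 replicate 3 inside the range of the controls. The log2 fold change was 0.06 (95% interval −0.06 to 0.19, limma adjusted p = 0.30), which is 0.30 above the all-gene median. Hsph1 was called higher with median-ratio scaling (0.28), upper-quartile scaling (0.30) and quantile normalization (0.38), and its sign turned with column totals made equal (−0.03). No 50-base window of Hspa4 or Hsph1 occurred in a transcript of another gene.

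The J-domain genes fell by similar amounts. Dnaja1 (chromosome 4, 40722150 to 40737149), a type A protein that is farnesylated, went from 16.5, 16.7 and 17.2 FPKM in DMSO to 10.2, 11.1 and 11.2 FPKM in BMH-21. Dnajb1 (chromosome 8, 83608193 to 83612653), the HSP40 that works with HSP70 in dissolving aggregates, went from 23.1, 20.9 and 23.0 FPKM to 15.2, 15.0 and 15.9 FPKM. In both genes the spread within a group was small beside the gap between groups. The log2 fold changes were −0.59 ± 0.05 for Dnaja1 (SE; limma, adjusted p = 1.45e-06) and −0.51 ± 0.05 for Dnajb1 (SE, limma adjusted p = 5.86e-06). Relative to all tested genes they were −0.36 and −0.28. Dnajb1, though among the classical heat-inducible genes, was called lower, as Dnaja1 was. For Dnaja1, 28.8% of 50-base windows occur in other genes, and for Dnajb1 0.441%.

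**Figure D2:**
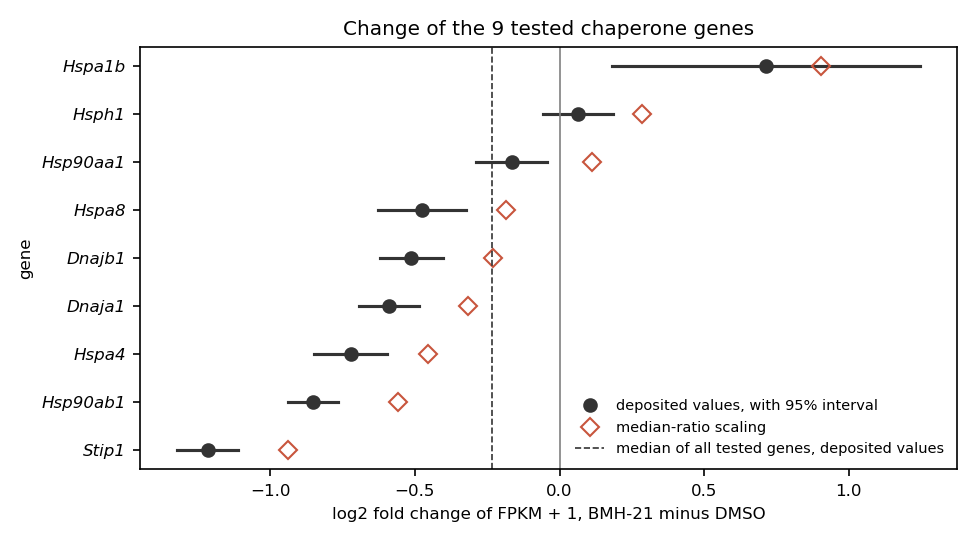
Log2 fold change of FPKM + 1 (BMH-21 minus DMSO) for the 9 tested genes, as filled circles with 95% intervals from limma, beside the value after median-ratio scaling (open diamonds) and the median of all tested genes (dashed line, −0.23). Stip1 lies lowest at −1.22 and Hspa1b highest at 0.71 with the widest interval, and every open diamond lies to the right of its circle.

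The split into rises and falls rests in part on the scaling. Median-ratio scaling raised the all-gene median by 0.24 on the log2 scale and turned 58.4% lower and 19.9% higher genes into 35.3% and 38.2%. With it, 6 of the 9 tested members were still called lower and 2 higher. Stip1 was then at −0.94, Hsp90ab1 at −0.56, Hspa4 at −0.45, Dnaja1 at −0.32 and Dnajb1 at −0.23. These 5 genes and Hspa8 were called lower under every scaling, filter and left-out library that was run, as well as with DMSO replicate 3 as the only control.

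On the FPKM scale, which is per length, the order of mean levels in DMSO was Hsp90ab1, Hspa8, Stip1, Dnajb1, Dnaja1, Hsp90aa1, Hspa4, Hsph1, Hspa1b and Hspa1a. Dnaja1 and Hsp90aa1 overlapped in their library values, and no other neighbours did. In BMH-21 the order was Hsp90ab1, Hspa8, Dnajb1, Hsp90aa1, Dnaja1, Stip1, Hspa4, Hsph1, Hspa1b and Hspa1a. Stip1 went from rank 3 to rank 6, where it overlapped Dnaja1, and Hsph1 overlapped Hspa1b. Hsp90ab1 made up 62.3% to 63.2% of the summed FPKM of the 10 genes in DMSO and 57.2% to 58.3% in BMH-21, and Hspa8 16.4% to 18.2% and then 19.8% to 21.5%.

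Ratios between genes within a library do not change when a library is multiplied by a factor, though quantile normalization can change them, and 10 ratios chosen by role were compared with an exact two-sided permutation test. With 3 against 3 libraries this test cannot give a p below 0.1, and after adjustment over the 10 ratios the smallest was 0.125, so none could pass. The inducible to constitutive HSP90 ratio, Hsp90aa1 to Hsp90ab1, was 0.0490, 0.0499 and 0.0521 in DMSO and 0.0804, 0.0854 and 0.0765 in BMH-21. Every BMH-21 library was above every control, with a log2 difference of 0.68 (exact permutation p = 0.1, adjusted p = 0.125). The HSP110 ratio, Hsph1 to Hspa4, went from 0.223, 0.204 and 0.208 to 0.387, 0.402 and 0.379, also without overlap, by 1.84-fold (exact permutation p = 0.1). For Hspa1a and Hspa1b summed over Hspa8, the controls were at 0.0160, 0.0136 and 0.0264 and the BMH-21 libraries at 0.0578, 0.0641 and 0.0278. The 2.62-fold difference there rested on the libraries taken: replicate 3 of each group nearly met, and the log2 difference was 1.39 over all libraries, 1.67 without DMSO replicate 3 and 0.83 against DMSO replicate 3 alone. In each of these 3 pairs the mean ratio of inducible to constitutive gene was higher in BMH-21.

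Partners of the chaperones did not all keep step. Stip1 relative to Hsp90aa1 and Hsp90ab1 together was below the DMSO range in every BMH-21 library, at 0.0850, 0.0769 and 0.0765 in DMSO and 0.0603, 0.0550 and 0.0561 in BMH-21 (0.719-fold, exact permutation p = 0.1). Dnaja1 to Hspa8 overlapped between groups, with a mean of 0.190 ± 0.0154 in DMSO and 0.171 ± 0.0151 in BMH-21 (SD, n = 3, exact permutation p = 0.3). Dnajb1 to Dnaja1 overlapped as well, with 1.33 ± 0.0775 and 1.42 ± 0.0676 (SD, n = 3, exact permutation p = 0.2).

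**Figure D3:**
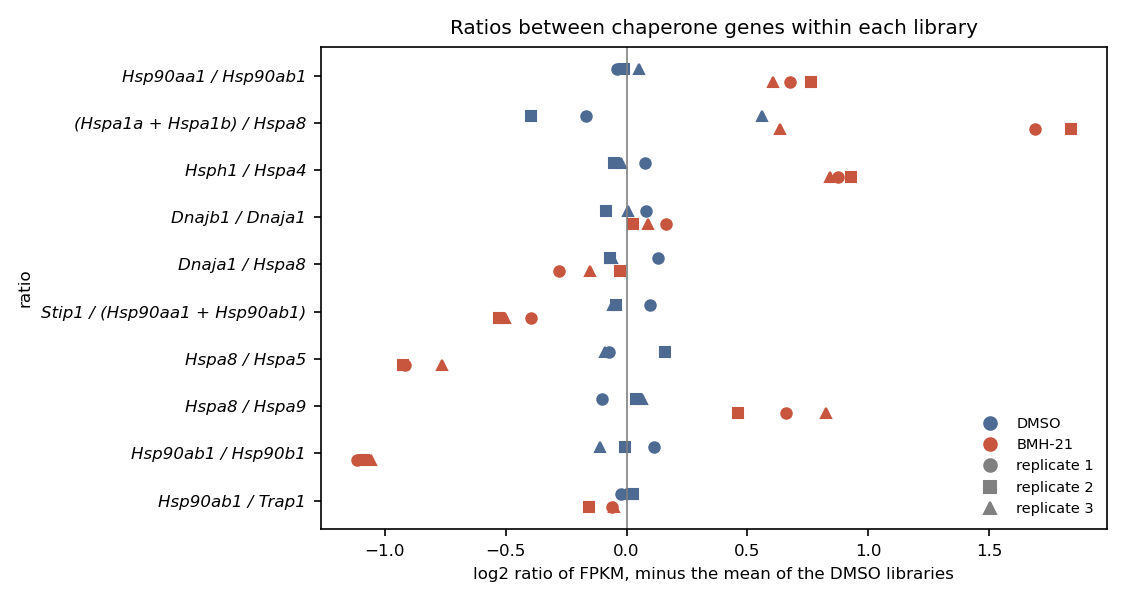
Log2 ratio of FPKM for 10 pairs in each library, set to 0 at the mean of the DMSO libraries, with colours for groups and symbols for replicate numbers. The Hsp90ab1 to Hsp90b1 and Hspa8 to Hspa5 ratios lie below the controls in all BMH-21 libraries and the Hsp90aa1 to Hsp90ab1 and Hsph1 to Hspa4 ratios above, while both ratios with Dnaja1 overlap.

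The HSP70 and HSP90 paralogs of organelles had calls in both directions. Hspa5 (BiP), the HSP70 of the endoplasmic reticulum, rose from 35.1 ± 4.08 to 45.7 ± 2.65 FPKM (SD, n = 3, limma adjusted p = 0.00096). Hsp90b1 (GRP94), the HSP90 of that compartment, was called higher, from 28.5 ± 3.07 to 33.2 ± 0.671 FPKM (limma adjusted p = 0.012), a call lost with column totals made equal and with DMSO replicate 3 as the only control (0.08, limma adjusted p = 0.27). The Hspa5 change was 0.47 without DMSO replicate 3 and 0.19 against it alone, still called. Hspa8 relative to Hspa5 went from 2.54 ± 0.251 to 1.39 ± 0.0889 (SD, n = 3), and Hsp90ab1 relative to Hsp90b1 from 11.2 ± 0.873 to 5.27 ± 0.113, neither overlapping (each exact permutation p = 0.1). In mitochondria, Hspa9 (mortalin) fell from 67.7 ± 2.31 to 31.0 ± 2.40 FPKM and Trap1, the mitochondrial HSP90, from 13.3 ± 0.305 to 7.82 ± 0.281 FPKM. Both were called lower. The ratio of Hspa8 to Hspa9 was 1.31 ± 0.0808 in DMSO and 2.06 ± 0.258 in BMH-21 (SD, n = 3, exact permutation p = 0.1), and Hsp90ab1 to Trap1 was 23.8 ± 0.413 and 22.4 ± 0.875. Of 16 tested genes of these organelle systems, 4 were called higher and 10 lower (median log2 fold change −0.16), or 8 and 6 with median-ratio scaling. These shares are near those of all tested genes, of which 19.9% were called higher and 58.4% lower. Genes of the endoplasmic reticulum stood on both sides. Named here after their values were seen, Hyou1 (−0.16), an HSP70 relative, the J-domain genes Dnajc3 (−0.17), Dnajc10 (−0.24) and Sec63 (−0.41), and the exchange factor Sil1 (−0.68) were called lower, and Dnajb11 was not called. With median-ratio scaling the signs of Hyou1, Dnajc3 and Dnajc10 turned, and Hyou1 was then called higher (0.11). With upper-quartile scaling Hyou1 (0.13) and Dnajc3 (0.13) were called higher. The Dnajc10 call was lost with median-ratio, upper-quartile and quantile scaling, and the Sec63 call with upper-quartile scaling and quantile normalization. Dnajb11 was called higher with median-ratio scaling (0.31) and lower with column totals made equal (−0.10). With DMSO replicate 3 as the only control the calls of Hyou1 (−0.12) and Dnajc3 (−0.13) were lost, as was that of the macrophage marker Cd68 (0.12). Others in the list were Hspe1, the mitochondrial HSP10 lid, which rose from 145 to 192 FPKM, and its chaperonin Hspd1 (HSP60), which fell from 88.0 to 49.7 FPKM. Dnajb9, a co-chaperone of BiP, rose from 10.4 to 14.3 FPKM, and the mitochondrial exchange factor Grpel1 was at 67.5 and 69.1 FPKM and was not called. With median-ratio scaling (0.33) and upper-quartile scaling (0.35) Grpel1 was called higher, and with column totals made equal lower (−0.09).

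Of 19 tested HSP90 co-chaperones, limma called 16 lower and 0 higher (median log2 fold change −0.57), or 13 and 3 with median-ratio scaling. At an unadjusted p under 0.05, 1 gene was higher, Fkbp8. Of all tested genes, 58.4% were called lower and 19.9% higher, or 35.3% and 38.2% with that scaling. Ppid, the cyclophilin 40 that docks on HSP90, had the largest fall, from 16.4 ± 1.44 to 5.09 ± 0.0620 FPKM (SD, n = 3). Its log2 fold change was −1.51 ± 0.06 (SE; limma, adjusted p = 1.37e-08). Nudc went from 327 ± 9.71 to 213 ± 10.8 FPKM and Ptges3, the p23 protein that holds HSP90 closed, from 189 ± 5.52 to 136 ± 4.99 FPKM (SD, n = 3), both called lower. Fkbp8, an immunophilin of the mitochondrial surface, was at 100.1 ± 3.54 and 107 ± 1.87 FPKM and was not called (limma adjusted p = 0.061), though it was called higher with median-ratio and upper-quartile scaling, and its sign turned with column totals made equal.

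Of 11 nucleotide exchange factors and other HSP70 partners, 8 were called lower and 2 higher (median log2 fold change −0.44), or 7 and 3 with median-ratio scaling. The share called higher is near the 19.9% of all tested genes, and 58.4% of those were called lower. With median-ratio scaling the all-gene shares were 38.2% higher and 35.3% lower. Of the 2 genes called higher, Bag2 had overlapping groups and a limma adjusted p of 0.0496. The Bag2 call was lost with column totals made equal and with DMSO replicate 3 as the only control. Bag1, an exchange factor that also links HSP70 to the proteasome, rose from 121, 136 and 149.8 FPKM to 176, 189.8 and 191 FPKM (log2 fold change 0.46, limma adjusted p = 0.00019). Hspbp1, another exchange factor, fell from 58.3 to 40.7 FPKM, and Tomm34, a repeat protein that binds HSP70 and HSP90, had the largest fall, from 20.3 to 11.98 FPKM. Bag3, a heat-inducible exchange factor of selective autophagy, went from 6.80 to 4.82 FPKM, a fall whose call was lost with upper-quartile scaling and quantile normalization. The ubiquitin ligase Stub1 (CHIP) was at 79.3 ± 2.49 and 82.5 ± 2.77 FPKM and was not called (limma adjusted p = 0.24). It was called higher with median-ratio scaling, upper-quartile scaling and quantile normalization, and its sign turned with column totals made equal.

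Among 18 tested J-domain genes of the cytosol and nucleus other than Dnaja1 and Dnajb1, 12 were called lower and 4 higher (median log2 fold change −0.34), or 7 and 6 with median-ratio scaling. These shares are near those of all tested genes, 58.4% and 19.9%, or 35.3% and 38.2% with that scaling. Dnajc7, which carries tetratricopeptide repeats as STIP1 does, had the largest fall, from 14.7 ± 0.367 to 5.96 ± 0.160 FPKM (SD, n = 3), or −1.17 on the log2 scale. Dnaja2, the close relative of Dnaja1, fell from 49.0 to 31.1 FPKM. Dnajc8, a splicing-associated protein, went from 129 to 104 FPKM, a call lost with median-ratio scaling and with upper-quartile scaling, where its sign turned. Dnajc5, the cysteine string protein, was called higher, from 29.2 to 32.7 FPKM, except with column totals made equal and with DMSO replicate 3 as the only control (0.15, limma adjusted p = 0.062). Dnajb5 was called higher at a low level, from 0.847 to 1.21 FPKM.

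Of 7 further HSP70 family genes, 3 were tested. Beside 58.4% of all tested genes, all 3 were called lower. These were Hspa14, a ribosome-associated member, from 21.4 to 13.6 FPKM, Hspa13, from 3.67 to 2.64 FPKM, and Hspa4l, from 1.39 to 1.03 FPKM. The Hspa13 call was lost with quantile normalization, and the Hspa4l call with 3 of the 4 other scalings. Small heat shock proteins were mostly under the filter. Of 8 listed, only Hspb6 was tested. It fell from 3.21 to 1.47 FPKM and was called lower, as were 58.4% of all tested genes. Hspb7 was under the filter and had higher values with BMH-21, at 0.225, 0.351 and 0.287 FPKM in DMSO and at 0.769, 0.608 and 0.920 FPKM in BMH-21. The inducible Hspb1 was listed at 0 in 4 of 6 libraries.

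For the heat shock factor itself the call depended on the scaling. Hsf1 was not called as deposited, at 9.72, 10.0 and 9.78 FPKM in DMSO and at 9.85, 8.90 and 9.93 FPKM in BMH-21, with overlapping groups (log2 fold change −0.04, 95% interval −0.16 to 0.07, limma adjusted p = 0.49). It was called higher with median-ratio scaling (0.23), upper-quartile scaling (0.25) and quantile normalization (0.21), and lower with column totals made equal (−0.15). Hsf2 was under the filter, at 0.733 ± 0.104 and 0.417 ± 0.0360 FPKM (SD, n = 3). Hsbp1, a small protein that binds and restrains HSF1 trimers, rose from 73.4, 74.9 and 78.3 FPKM to 97.7, 98.4 and 113 FPKM (log2 fold change 0.44, limma adjusted p = 5.25e-05).

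**Figure D4:**
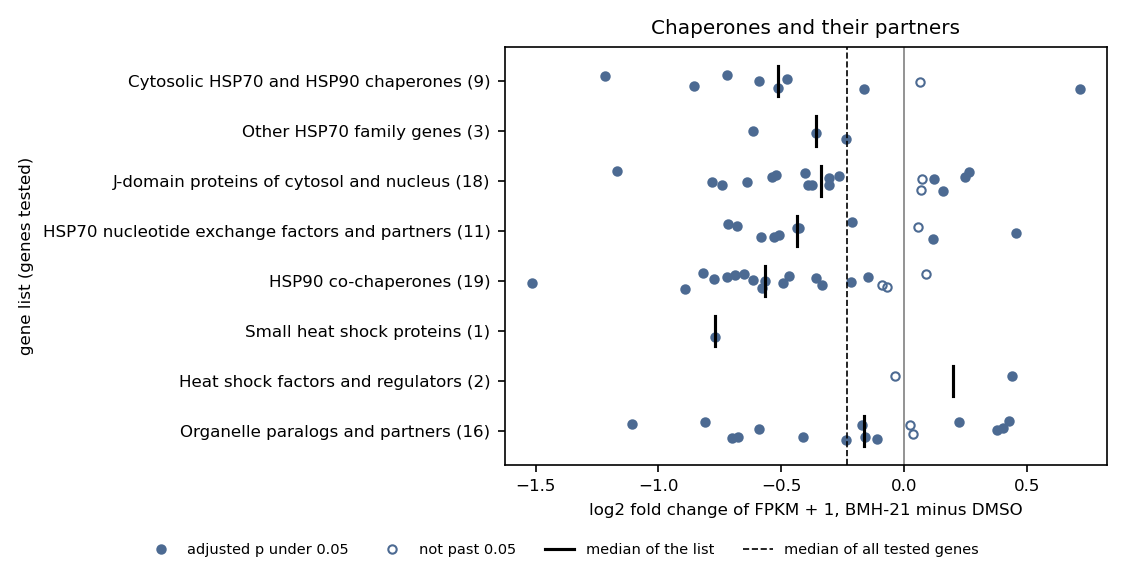
Log2 fold change of FPKM + 1 (BMH-21 minus DMSO) of each tested gene, by list, with filled points for limma adjusted p under 0.05, bars for list medians and a dashed line for the median of all tested genes (−0.23). HSP90 co-chaperones have a median of −0.57 and reach −1.51, while the organelle list spreads from −1.11 to 0.43.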

How the data were processed

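Polysomal RNA of 6 libraries (3 DMSO, 3 BMH-21) had been made with oligo-dT enrichment, per the labels' protocols. The label of DMSO replicate 2 names polyA RNA and the others total RNA. Per the submitters' processing notes, Trimmomatic 0.38, HISAT2, SAMtools and mm10 were used. The counting tool is not given in the sources used here. The deposited table was read as FPKM from its values. Between 75.5% and 77.5% of low values in genes with 1 transcript were within 0.01 of whole reads (up to 20), too few to recover counts.

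Genes that reached 1 FPKM in 3 or more libraries were tested on log2(FPKM + 1), a scale that understates changes of low genes, with limma 3.58.1 (R 4.3.3, intensity trend) and Benjamini-Hochberg adjustment over 9748 genes. Scalings, filter, pseudocount, trend, block and left-out replicates were varied. DMSO replicate 3 as the only control was added after the data had been seen. Named genes were all 10 members and, per list, the 3 highest by mean level, the largest called rise and fall, and 8 set genes. Members and lists were chosen with earlier results of these data known. Gene positions and transcripts came from GENCODE M21 (GRCm38, the assembly of mm10).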

Additional observations from a re-analysis of the deposited data

How the results depend on the processing

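Stip1, Hsp90ab1, Hspa4, Dnaja1, Dnajb1 and Hspa8 were called lower in all 15 alternatives. Genes called higher numbered 1938 as deposited, but 3724, 3873 and 3493 under median-ratio, upper-quartile and quantile scaling, and those called lower 5690, but 3442, 3294 and 3545. Members called higher numbered 1 as deposited, 2 with each of these 3 scalings, 0 with no filter, 0 with DMSO replicate 3 as the only control, and 0 to 1 when a replicate was left out. Members called lower numbered 6 to 7 throughout. Hsp90aa1 turned sign under the same 3 (0.11, 0.13 and 0.059), none called, and lost its call with no filter and without BMH-21 replicate 3. Hsph1 turned sign with column totals made equal (−0.026). Hspa1b also lost its call with no filter. The cause of these changes was not tested. None of the 80 alternative values of the 10 ratios turned sign. Where the groups of a ratio did not overlap, leaving out libraries could not turn it. Quantile normalization was not run on the ratios. Libraries with the same replicate number did not deviate together (correlation of deviations −0.112 to −0.064). With 3 libraries per group this cannot show whether they shared a culture or day. With the replicate block 1 member was called higher and 7 lower, as without it. Values of Hspa8, Hsp90aa1, Hspa1a and Hspa1b are limited by shared sequence: 58.5% of 50-base windows of Hsp90aa1 occur in other genes. The pseudogene that shares most with Hsp90aa1, Gm12346, had a mean of 0.0960 FPKM in DMSO and 0.0706 FPKM in BMH-21. That is far below Hsp90aa1, unlike Gm15459 beside Hspa8. Depth limits Hspa1a.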

Other observations

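Several of the largest falls around HSP70 and HSP90 were of proteins with tetratricopeptide repeats. In many such proteins, though not in all, these modules grip the tails of the chaperones. This grouping was made after the values had been seen and was not tested. Of 16 such genes in the lists of members, J-domain proteins, exchange factors and HSP90 co-chaperones, 13 were called lower and 0 higher, with a median log2 fold change of −0.70 and a range from −1.51 (Ppid) to 0.09 (Fkbp8). The 41 other tested genes of the same lists had 30 called lower and 7 higher, with a median of −0.39. Of all tested genes, 58.4% were called lower and 19.9% higher.

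The mitochondrial pair Hspe1 and Hspd1 had different calls, higher and lower. Their ratio was 1.81, 1.595 and 1.54 in DMSO and 3.46, 3.93 and 4.19 in BMH-21, a comparison picked after the values had been seen and not tested.

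The epithelial signal of DMSO replicate 3 was shared by a small set of genes. Under 0.1 FPKM in DMSO replicates 1 and 2 and at least 1 FPKM in DMSO replicate 3 and all BMH-21 libraries were 6 genes, Krt18, Krt8, Wfdc2, Msln, Fn1 and Htra1. The same rule with another pair of controls near 0 found 0 genes. That rule was set after the epithelial markers, Krt8 and Krt18 among them, had been seen, and the difference was not tested. Krt18 was at 0, 0.0644 and 5.47 FPKM in DMSO and at 8.89, 6.41 and 8.09 FPKM in BMH-21. Msln, which encodes mesothelin, was at 0.0542, 0 and 1.63 FPKM and at 2.21, 2.20 and 1.15 FPKM.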
